A study of Mus musculus with 2 samples.

Results

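The 8 genes described here encode the calcium/calmodulin-dependent protein kinases of the CaMKII family (Camk2a, Camk2b, Camk2d and Camk2g) and the class IIa histone deacetylases (Hdac4, Hdac5, Hdac7 and Hdac9). They were chosen by symbol out of 18193 genes with a named probe set, as regulators that act upstream of the MEF2 transcription factors. All 24 probe sets annotated with 1 of these symbols alone were used. Their values in this comparison were known when they were chosen, so every value is a description and none was tested. RNA came from mouse skeletal myoblasts in culture, cells that divide and later fuse into muscle fibres. The WT group was 1 culture with intact Foxj3, a gene of the forkhead transcription factor family, and the KO group was 1 culture in which Foxj3 was knocked out. Both cultures had been passaged 3 times, were grown in medium with 20% fetal bovine serum and were harvested at 80% confluence. Each was measured on 1 Affymetrix oligonucleotide array of the same design, so there were no replicates and no spread between cultures. The sources used here do not say which part of Foxj3 was removed, how many animals each culture came from or their strain.

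CaMKII enzymes are multi-subunit kinases that are switched on by calmodulin when calcium rises in the cell. Class IIa histone deacetylases bind MEF2 factors on muscle genes and hold those genes silent. When calcium-activated kinases phosphorylate these deacetylases, 14-3-3 proteins bind them and they leave the nucleus, which frees MEF2 to drive muscle differentiation. In myoblasts this pathway is known as a switch between the dividing state and the formation of muscle fibres.

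Values are linear signal intensities as deposited, in arbitrary units. The 40th percentile of all values of both arrays, 47.04, was taken as the detection floor, and a probe set over it on at least 1 array was called measured. Ratios are KO over WT after values under the floor were raised to it, so a ratio with 1 array under the floor is a bound and is written as "at least". A value under 0.1 of the floor, 4.70, was called near 0. The probe set of a gene with the highest mean of its log2 values is called its main probe set, and levels of different genes were not compared. Of the 24 probe sets, 15 were over the floor on both arrays, 3 on the KO array alone and 6 on neither.

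The RefSeq promoter table (build GRCm38.p6) held windows for 6 of the 8 genes, and 4 windows are shown here. Camk2b, Hdac4 and Hdac5 are the genes whose main probe sets passed 2-fold, and both probe sets of Hdac7 were higher in the KO library, for which the start site with a match is shown. Each sequence is the 250 bases before an annotated start site, on the minus strand, written in the direction of transcription. Capitals mark a match to the MEF2 consensus or to GTAAACA, a forkhead recognition sequence, searched on both strands.
Camk2b, chr11:6065749-6065998: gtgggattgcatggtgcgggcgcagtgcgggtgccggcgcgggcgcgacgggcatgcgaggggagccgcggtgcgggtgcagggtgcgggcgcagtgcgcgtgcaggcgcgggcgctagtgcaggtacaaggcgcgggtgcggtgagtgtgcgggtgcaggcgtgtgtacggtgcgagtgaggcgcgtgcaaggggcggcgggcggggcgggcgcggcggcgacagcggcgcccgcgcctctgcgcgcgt
Hdac4, chr1:92180342-92180591: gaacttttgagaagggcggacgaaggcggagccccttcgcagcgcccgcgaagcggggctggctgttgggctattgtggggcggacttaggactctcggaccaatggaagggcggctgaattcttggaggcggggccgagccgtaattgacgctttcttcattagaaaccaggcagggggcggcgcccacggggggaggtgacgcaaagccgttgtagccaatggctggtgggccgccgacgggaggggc
Hdac5, chr11:102230173-102230422: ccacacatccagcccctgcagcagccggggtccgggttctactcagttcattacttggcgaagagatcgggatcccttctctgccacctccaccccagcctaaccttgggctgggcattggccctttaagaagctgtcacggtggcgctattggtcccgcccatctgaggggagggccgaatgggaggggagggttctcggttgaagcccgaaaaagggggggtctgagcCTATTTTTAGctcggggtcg
Hdac7, chr15:97831768-97832017, 1 of 4 annotated start sites: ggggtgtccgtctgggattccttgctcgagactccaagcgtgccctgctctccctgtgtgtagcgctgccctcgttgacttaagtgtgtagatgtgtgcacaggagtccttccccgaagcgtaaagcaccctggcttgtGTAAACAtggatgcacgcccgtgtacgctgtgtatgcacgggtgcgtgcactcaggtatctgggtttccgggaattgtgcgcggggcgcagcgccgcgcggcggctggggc
The Hdac5 window held 1 match to the MEF2 consensus, at its bases 231 to 240, and no GTAAACA. The Hdac7 window held 1 GTAAACA, at bases 140 to 146, and no MEF2 match, and the other 3 Hdac7 windows held neither. The Hdac4 window, the Camk2d window and both Hdac9 windows held neither sequence. The Camk2b window held neither, and 78.4% of its bases were G or C, against a median of 52.4% over all windows. The Camk2d (68.4%), Hdac4 (65.2%), Hdac5 (60.8%) and Hdac7 windows (56.4% to 74.0%) were above that median too. Both Hdac9 windows (43.6% and 44.4%) were below it. Over 32851 windows of this length, 2.92% held the MEF2 consensus and 3.17% held GTAAACA. The matches do not overlap each other. They describe letters in these windows and do not show that a factor bound there. The motifs and the windows shown were chosen with the expression values and the sequences in view.

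The array check of the knockout was mixed. The main probe set of Foxj3, 1435362_at, read 495.51 in WT and 77.28 in KO, while 1438220_at read 79.74 and 99.40 and 1459055_at did not reach the floor in either library. Which of these probe sets lie in the deleted part is not known, so directions below refer to the libraries labelled WT and KO. The myoblast markers Myod1, Myf5, Pax7, Des, Cdh15, Ncam1, Itga7 and Vcam1 were all over the floor on both arrays, with signals summed over 8 main probe sets of 6055.8 and 5987.1. By main probe sets Myod1 alone passed 2-fold, at 631.27 in WT and 1750.95 in KO. Of the 10 other measured probe sets of these markers, 4 were higher by 2-fold or more (both of Vcam1, 1 of Pax7 and 1 of Ncam1) and 3, all of Ncam1, were lower.

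Among the CaMKII genes, Camk2b read near 0 in the WT library and was bright in the KO library, and no other CaMKII main probe set differed by 2-fold. Among the class IIa HDAC genes, Hdac4 and Hdac5 were about 2-fold lower in the KO library, Hdac7 was higher by less than 2-fold, and Hdac9 was near the floor. By main probe sets, 1 of 8 genes was higher by 2-fold or more, beside 3.73% of all 14597 measured genes, and 2 of 8 were lower by 2-fold or more, beside 6.72% of all genes. Over the 18 measured probe sets of these genes, 3 were higher and 2 lower by 2-fold or more, beside 5.62% and 6.67% of the 25057 measured probe sets of named genes. The 18 ratios split evenly in sign, with 9 above 0 and 9 below, and their median log2 ratio was 0.04, beside -0.02 over all measured probe sets of named genes. Because the genes were chosen with these values known, nothing is read from these shares. In bulk RNA, fewer cells that express a gene and less RNA per cell cannot be told apart.

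**Figure D1:**
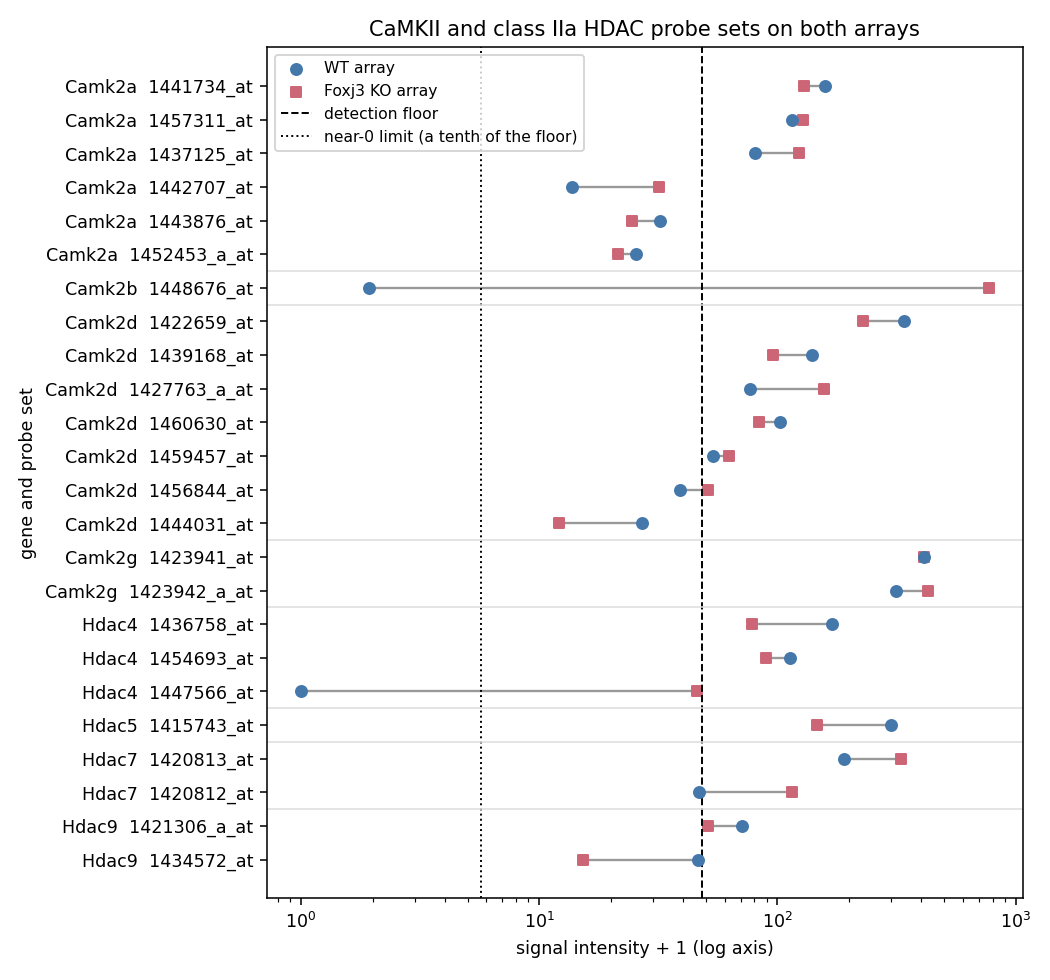
Signal intensity + 1 on a log axis for each of the 24 probe sets of the CaMKII and class IIa HDAC genes, with circles for the WT array, squares for the Foxj3 KO array, the detection floor as a dashed line and the near-0 limit as a dotted line. Camk2b 1448676_at spans from 0.92 to 769.98, while most other pairs lie close together.

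Camk2b encodes the beta subunit of CaMKII, which carries an actin-binding stretch and is best known from neurons and muscle. Its only probe set among the 24, 1448676_at, read 0.92 in WT and 769.98 in KO, a ratio of at least 16.4-fold (log2 ratio of at least 4.03). This was the second largest floored ratio of all measured genes. The WT value lies far under the floor and gives no measurable level, so the size of the ratio is set by the floor. No other probe set was annotated with the Camk2b symbol alone, so the difference could not be checked within the gene. Probe sets with several symbols or none were not searched for Camk2b.

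Signals near 0 were uncommon among bright probe sets. On the WT array 1172 of 45037 probe sets (2.60%) were near 0, and on the KO array 970 (2.15%). The 1172 had a median KO signal of 23.05, and 117 of them were over the floor on the KO array. The KO signals of 3139 probe sets, Camk2b included, lay within 2-fold of that of Camk2b, and their median WT signal was 562.45. Of these, 18 were under the floor on the WT array and 5 were near 0 there, with Camk2b in both counts. Probe sets near 0 on the WT array that reached at least 4 times the floor (188.16) on the KO array numbered 10, Camk2b among them. The reverse pattern was found in 1 probe set, that of Itgb1bp2, which encodes melusin, a muscle protein that binds integrin, at 330.45 and 1.26. Itgb1bp2 was singled out after its values were seen.

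The genes whose main probe sets lay nearest to Camk2b, by distance in log2(value + 1) on the 2 arrays, were Exosc6, Disp2, Spata2l, Tex37 and Cd93. Exosc6, a subunit of the RNA exosome, read 0.43 and 857.83, at a distance of 0.45. Disp2 read 2.41 and 751.52, at a distance of 0.83, while its other probe sets read 51.27 and 37.28, and 50.86 and 51.59. Thus only 1 of the 3 Disp2 probe sets showed the pattern. Spata2l read 1.91 and 428.39, Tex37 2.77 and 219.33, and Cd93, an endothelial and myeloid surface protein, 0.49 and 178.76. The 4 other Cd93 probe sets read between 6.87 and 68.11 on the WT array and between 22.16 and 98.24 on the KO array. Exosc6, Spata2l and Tex37 had 1 probe set each, like Camk2b.

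A probe set near 0 did not always go with a dim gene. Of 812 probe sets with 1 gene symbol that were near 0 on the WT array, 179 (22.0%) belonged to genes with another probe set at least 4 times the floor on that array, and on the KO array these numbers were 651 and 87 (13.4%). An example, chosen after its values were seen, is Myod1, whose probe set 1447675_x_at read 29.34 and 0.49. What produced the near-0 value of Camk2b was not tested.

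**Figure D2:**
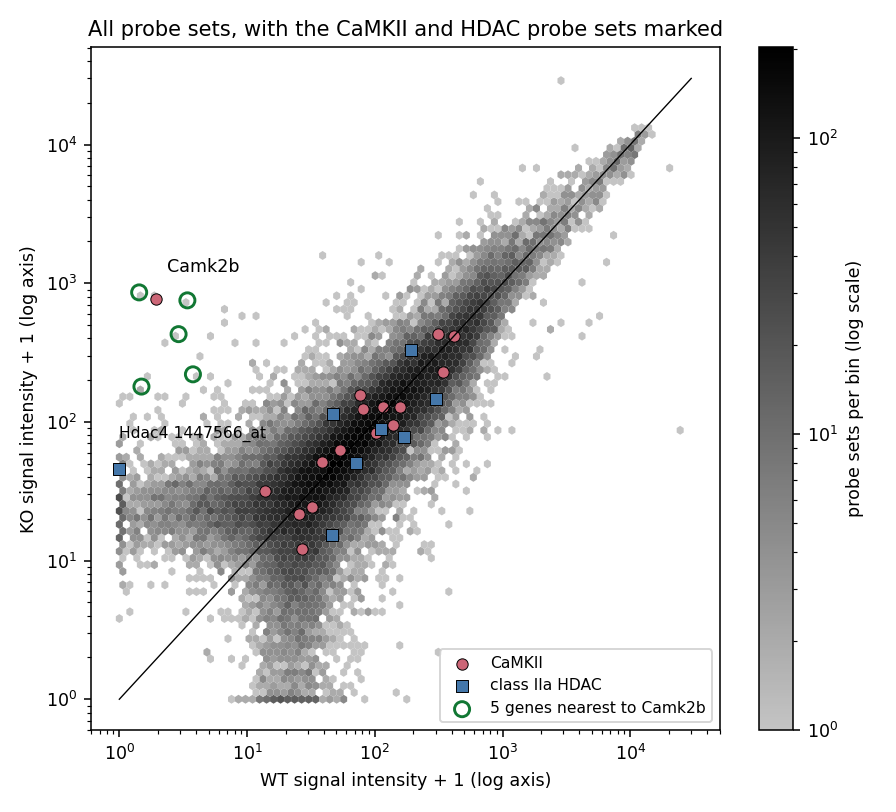
WT against KO signal intensity + 1, both on log axes, for all 45037 probe sets as grey bins whose shade gives their number, with CaMKII probe sets as circles, class IIa HDAC probe sets as squares, the 5 genes nearest to Camk2b as open rings and the line of equal signal. Camk2b and the ringed genes stand apart at the upper left beside few other probe sets, and the other CaMKII and HDAC probe sets lie within the main cloud or along its edge at low signals.

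Camk2a encodes the alpha subunit, the main form in forebrain neurons. Of its 6 probe sets 3 were measured, at 157.47 and 127.74 (1441734_at), 114.34 and 126.72 (1457311_at), and 79.32 and 122.12 (1437125_at), WT first. Their log2 ratios were -0.30, 0.15 and 0.62, so they differed in direction and none reached 2-fold. The other 3 were under the floor on both arrays, between 12.78 and 31.09 on the WT array and between 20.50 and 30.90 on the KO array.

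Since Camk2a and Camk2b are abundant in neurons, neural and Schwann cell markers were read beside them. Of 14 listed markers 12 were on the array and 9 were measured, and the summed signal of the 12 was 1671.6 in WT and 1185.5 in KO. Snap25, Syt1 and Stmn2, which mark neurons, were under the floor on both arrays, between 9.11 and 14.18 in WT and between 14.14 and 34.30 in KO. Other neuron markers, Tubb3 (227.05 and 174.62), Nefl (143.65 and 180.62) and Rbfox3 (65.60 and 94.73), were over the floor on both. Map2 was over it on the WT array alone (68.41 and 47.01). Of the measured markers 5 had ratios above 0, none of them 2-fold, and Erbb3, a neuregulin receptor, was the 1 marker at least 2-fold lower (628.48 and 46.94). Erbb3, whose other measured probe set had a log2 ratio of 0.26, set the direction of the sum: without it the 11 other markers summed to 1043.1 in WT and 1138.6 in KO. Their part in the Camk2b ratio was not tested.

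Camk2d and Camk2g encode the delta and gamma subunits, the forms found in most tissues, with delta the main form in heart. The main probe set of Camk2d, 1422659_at, read 340.07 and 228.51, 1.49-fold lower in the KO library. Probe sets 1439168_at (138.89 and 94.71) and 1460630_at (101.49 and 82.58) were also lower, with log2 ratios of -0.55 and -0.30. In the other direction, 1427763_a_at read 75.56 and 156.32, 2.07-fold higher, and 1459457_at read 52.64 and 61.78. Of the remaining probe sets, 1456844_at read 37.84 and 50.07, and 1444031_at stayed under the floor at 26.08 and 11.05.

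The 5 Camk2d probe sets above the floor in both libraries therefore spanned 1.62 log2 units between them. Of the 132 genes with 5 such probe sets, 49 (37.1%) had a span at least as large, and the middle part of these spans, between the quartiles, ran from 1.07 to 2.03. Camk2d is spliced into several variants, and which of them each probe set detects was not analysed here.

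Camk2g had 2 probe sets, which were designed from the same sequence record. The main one, 1423941_at, was level at 413.33 and 412.71. The other, 1423942_a_at, read 313.96 and 427.83, a log2 ratio of 0.45. Neither reached 2-fold.

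**Figure D3:**
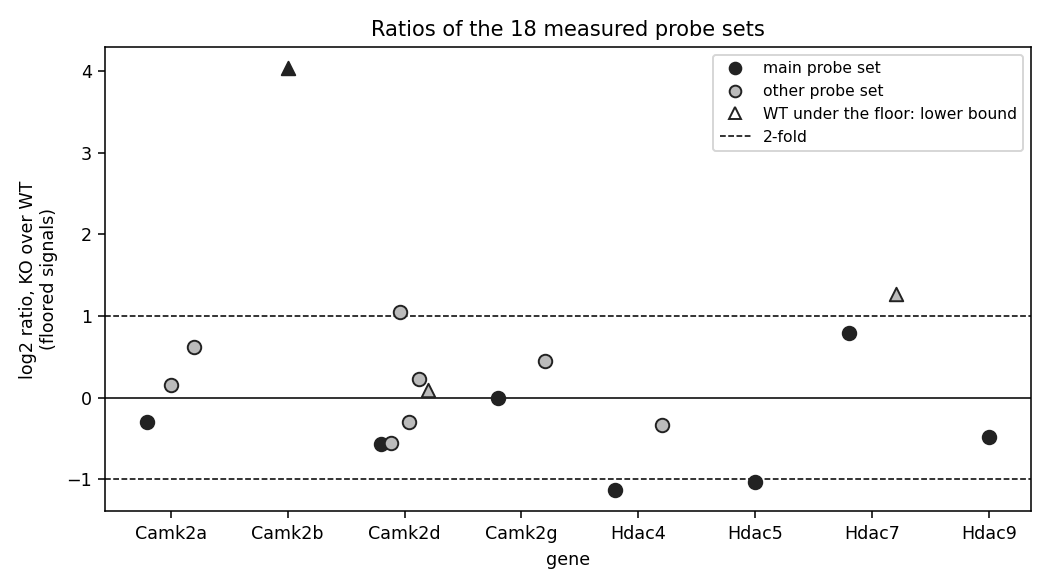
Log2 ratios, KO over WT, of the 18 measured probe sets by gene, with filled points for the main probe set of each gene, grey points for the others, triangles for lower bounds where the WT value was under the floor, and dashed lines at 2-fold. Camk2b lies at 4.03, probe sets of Camk2a, Camk2d and Camk2g fall on both sides of 0, and those of Hdac4 and Hdac7 each keep to 1 side.

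Hdac4 and Hdac5 encode deacetylases that shuttle between nucleus and cytoplasm and repress MEF2 in muscle. The main Hdac4 probe set, 1436758_at, read 169.08 in WT and 76.93 in KO, 2.20-fold lower. A second, 1454693_at, was lower by less, at 111.58 and 88.42 (log2 ratio -0.34). The third, 1447566_at, was listed at 0 in WT and at 45.11 in KO, under the floor on both arrays, so it gives no ratio. On the WT array 151 probe sets were listed at exactly 0, and 16 of them, this one included, read 45.11 or more on the KO array.

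Hdac5 had 1 probe set, 1415743_at, which read 298.33 and 145.55, 2.05-fold lower in the KO library. Both the Hdac4 and the Hdac5 ratio lay close to the 2-fold threshold. Hdac5 came under 2-fold with quantile scaling, with loess scaling and with the 40th percentile as a pseudocount. Hdac4 did so with that pseudocount, with the floor at the 60th percentile and with the mean over its probe sets, while the direction of both was the same in all 9 alternatives run for these ratios. Of these 9, 4 left the Hdac5 value as it was and 2 that of Hdac4, since they could not act on these probe sets.

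Hdac7 encodes the class IIa deacetylase best known from endothelium and thymocytes. Its main probe set, 1420813_at, read 189.43 and 327.61, 1.73-fold higher in the KO library. The other, 1420812_at, read 46.05, just under the floor, and 113.61, at least 2.42-fold higher. Both were designed from the same sequence record, so they are not independent measures of the gene.

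Endothelial markers were read beside Hdac7. Of 11 on the array 5 were measured, and the summed signal of the 11 was 638.2 in WT and 826.8 in KO. By main probe sets Esam was the 1 marker at least 2-fold higher, at 45.06 and 94.66. Another probe set of Egfl7 read 50.03 and 358.97, 7.18-fold higher, beside 1.52-fold by its main one. Of the 3 other measured Egfl7 probe sets, 1 had a ratio below 0, at a log2 ratio of -0.37. Kdr was the 1 measured marker with a main ratio below 0, at 110.20 and 101.27. Pecam1, Tek, Tie1, Cldn5, Emcn and Vwf were under the floor on both arrays. The summed endothelial signal thus moved the same way as Hdac7, and the sum of fibroblast markers did so too (1487.6 and 1925.9). The sums of leukocyte (911.4 and 803.0) and smooth muscle markers (7306.1 and 7096.5) were lower, as were the neural and myoblast sums given above. The part of endothelial cells in the Hdac7 ratio was not tested.

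Hdac9 encodes a class IIa deacetylase that is also made as a short form lacking the catalytic domain. Its main probe set, 1421306_a_at, read 70.02 and 49.90, 1.40-fold lower, with the KO value just over the floor. The other, 1434572_at, read 45.26 and 14.28, lower in the KO library but under the floor on both arrays. These signals were too close to the floor to give a firm ratio.

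The disagreement between probe sets of a gene gives a scale for these ratios. Over 4752 genes with 2 or more probe sets above the floor in both libraries, log2 ratios within a gene had a pooled SD of 0.66, and the median span within a gene was 0.78. The main ratios of Hdac4 (-1.14) and Hdac5 (-1.04) were larger than this SD and smaller than 2 times it. This SD is the spread between probe sets of a gene, which may detect different transcripts. It says nothing of the spread between cultures.

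Of the 4 MEF2 factors, on which these deacetylases act, 2 were lower in the KO library by 2-fold or more by main probe sets. Mef2c, the form most tied to muscle differentiation, read 403.70 and 42.26, at least 8.58-fold lower, and Mef2d read 511.54 and 163.03, 3.14-fold lower. All 4 other measured Mef2c probe sets had log2 ratios below 0, while for Mef2d 1437300_at was lower (299.89 and 124.54) and 1421388_at was level (147.71 and 148.69). The main probe set of Mef2a gave 824.91 and 509.39, and 3 other measured ones went the opposite way, and Mef2b lay near the floor at 38.02 and 52.29. Among all measured genes, 6.72% were lower and 3.73% higher by 2-fold or more. Of 22 measured genes on a list of MEF2-regulated genes, 11 were lower and 2 higher by 2-fold or more. The median log2 ratio of the 22 was -1.03, beside -0.06 over all measured genes. The largest were Srl, which encodes sarcalumenin of the sarcoplasmic reticulum (10.3-fold lower), Lmod3, a leiomodin of thin filaments (at least 9.05-fold lower), Smpx, a small muscle protein (8.90-fold lower), and Myom1, which encodes myomesin of the M band (7.49-fold lower). The 2 higher genes were Srpk3 and Mb, and another probe set of each was lower by 2-fold or more. These probe sets read 189.50 and 36.96 for Srpk3, and 411.32 and 60.11 for Mb. Of the 13 other measured probe sets of this list, 0 were higher and 4 lower by 2-fold or more. The shares over all measured probe sets of named genes were 5.62% and 6.67%. Most of this list are genes of differentiated muscle, and its members were chosen with results of these arrays known.

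Genes that act on the class IIa deacetylases had ratios on both sides of 0. Of 22 measured kinases and phosphatases of this list, 1 passed 2-fold upward and 1 downward by main probe sets, around a median log2 ratio of 0.06. Of their 30 other measured probe sets 1 was higher and 4 were lower by 2-fold or more, the lower ones of Camk1, Sik2, Sik3 and Ppp2ca. Camk4, a nuclear calmodulin-dependent kinase, read 8.18 and 128.94, at least 2.74-fold higher, while its other measured probe set gave a log2 ratio of 0.16. Camkk2, a kinase that activates Camk1 and Camk4, read 248.39 and 119.29, 2.08-fold lower, with both other measured probe sets below 0. Prkd1, a protein kinase D that phosphorylates class IIa deacetylases, read 485.50 and 275.94 (log2 ratio -0.82), and its other measured probe set had a log2 ratio of -0.83. Prkd2, of the same kinase family, went the other way at 198.24 and 347.27 (log2 ratio 0.81), though 3 of its 4 other measured probe sets had the opposite sign. Prkd3 was close to level at 369.47 and 349.54 (log2 ratio -0.08). These 3 kinases were named after their values were seen.

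Few genes of calmodulin binding and CaMKII inhibition were measured. Of 3, Pcp4l1, a small protein related to the calmodulin-binding protein Pcp4, was 2.26-fold higher in the KO library at 51.19 and 115.61. The CaMKII inhibitors Camk2n1 (101.67 and 75.77) and Camk2n2 (117.63 and 96.40) did not reach 2-fold, and the other measured probe set of Camk2n1 had the opposite sign.

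Calcineurin and NFAT, the phosphatase and transcription factors of a parallel calcium pathway, had 0 of 14 measured genes at 2-fold in either direction by main probe sets, with a median log2 ratio of 0.06. The largest of these ratios were those of the anchoring protein Akap5 (79.12 and 33.95, at least 1.68-fold lower) and the calcineurin inhibitor Cabin1 (216.93 and 131.82, 1.65-fold lower). Of 20 other measured probe sets, 1 of Ppp3cb was at least 3.74-fold higher and 1 of Ppp3r1 at least 2.68-fold lower, both against the sign of the main one. The 14-3-3 proteins, which hold phosphorylated deacetylases outside the nucleus, had 0 of 6 measured genes at 2-fold by main probe sets, with a median of 0.09. Of their 23 other measured probe sets, 6 were higher by 2-fold or more and 0 lower, namely 4 of Ywhaz, 1 of Ywhag and 1 of Ywhaq. Among all measured probe sets of named genes, 5.62% were higher and 6.67% lower by 2-fold or more. The main probe set of Ywhaz read 1793.39 and 1582.82, against the sign of all 6 other measured Ywhaz probe sets. Ywhaq was 1.70-fold higher at 1584.00 and 2696.15, with all 7 other measured probe sets above 0, and Ywhah read 478.78 and 556.90.

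Partners and corepressors of class IIa deacetylases had 1 of 12 measured genes at least 2-fold lower and 0 higher by main probe sets. This was Bcl6, a transcriptional repressor, at 396.69 and 126.83, whose other measured probe set went the opposite way (log2 ratio 1.26). Of the 14 other measured probe sets of this list, 2 were higher by 2-fold or more, of Bcl6 and Tbl1x, and 1 was lower, of Crebbp. The other classes of histone deacetylase had 0 of 6 measured genes at 2-fold by main probe sets, with a median log2 ratio of 0.04. Hdac1 read 468.24 and 452.61, Hdac3 267.32 and 293.18, Hdac6 176.77 and 137.73, and Hdac10 81.74 and 92.52. Hdac2 was higher by all 3 of its probe sets, at 654.26 and 994.88 by the main one. Hdac11 was lower by both of its probe sets, at 157.40 and 121.33 by the main one and 118.28 and 54.83 (2.16-fold) by the other, and Hdac8 was under the floor on both arrays. All pathway lists together had 4 of 89 measured genes higher by 2-fold or more (4.49%) and 15 lower (16.9%), of which the MEF2-regulated genes gave 2 and 11. The lists without the MEF2-regulated genes had 2 of 67 measured genes higher by 2-fold or more (2.99%) and 4 lower (5.97%). Mef2c and Mef2d were among the 4 lower. Over all measured genes these shares were 3.73% and 6.72%. The lists were chosen with earlier results of these data known, so nothing is read from these shares.

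**Figure D4:**
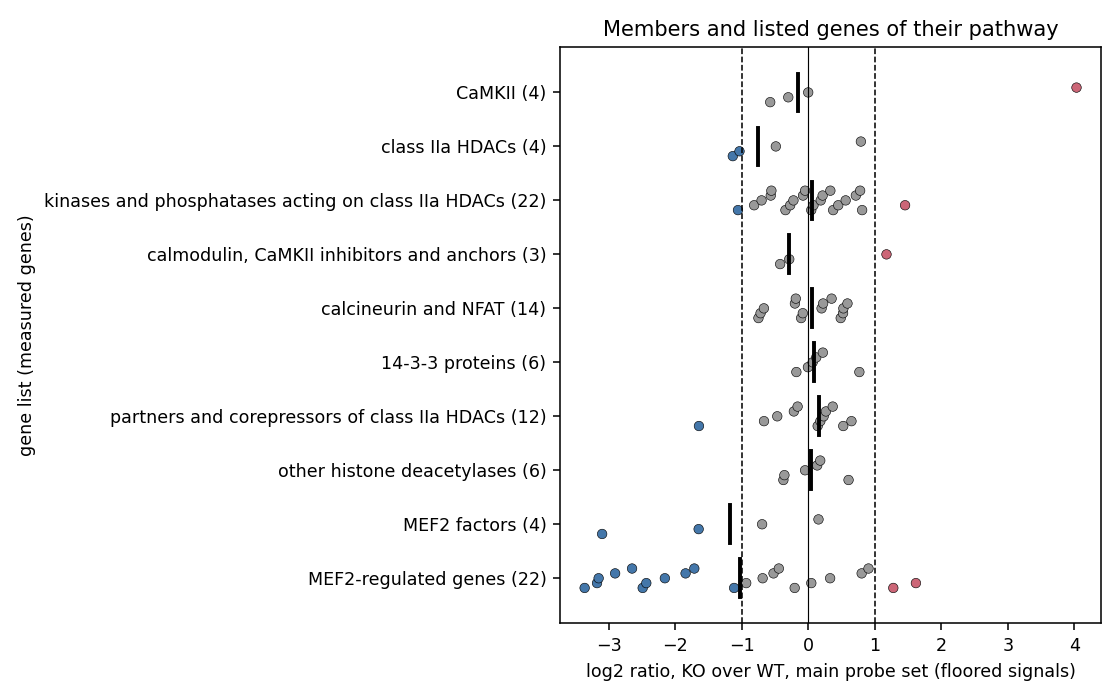
Log2 ratios, KO over WT, of the main probe sets of measured genes, with 1 row for the CaMKII genes, 1 for the class IIa HDAC genes and 1 for each pathway list (number of measured genes in brackets). Vertical bars mark medians, dashed lines mark 2-fold, and coloured points lie beyond it. MEF2 factors and MEF2-regulated genes extend furthest to the left, with medians of -1.17 and -1.03, and the other pathway lists centre between -0.29 and 0.16.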

How the data were processed

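Signal intensities, 1 per probe set and array, were used as deposited by the authors. For the summarisation of probes and the scaling of arrays no method is named in the labels or files. The instrument records, per the file headers, agreed in 40 of 42 fields and differed in fluidics module and scan time. Of 45037 probe sets, 34945 had 1 symbol in the platform annotation, 34741 of them with an Entrez identifier in a RefSeq table (GRCm38.p6) used to update symbols. The 932 with several symbols and 9160 unlisted named no gene. Columns without a sample numbered 0.

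Values were floored at the 40th percentile and compared as log2 ratios (Python 3.11.15, pandas 2.3.3, statsmodels 0.14.6 for loess). With 1 array per group no test was made, and the number of arrays limits precision. The calculation was checked on simulated data, with planted changes well past 2-fold in genes well over the floor. That check did not cover ratios near 2-fold or values under the floor. Members and lists were chosen with earlier results of these data known. Named were all members, Foxj3, MEF2 factors and other HDACs, up to 4 genes of at least 2-fold per other list (else the 2 largest), and the 5 genes nearest to Camk2b. Alternatives were 3 scalings, other floors, pseudocounts and thresholds, and other choices of probe set.

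Markers of fibroblasts, leukocytes and smooth muscle were also read. At 2-fold by main probe sets, 0 of 7 measured fibroblast and 0 of 6 leukocyte markers differed, while 1 other probe set of each list, of Col1a1 and Csf1r, was higher. Of 5 smooth muscle markers 1 was higher and 2 were lower.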

Additional observations from a re-analysis of the deposited data

How the results depend on the processing

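Camk2b was higher in the KO library by at least 2-fold in each of 9 alternatives, of which 2 could not change the value. With signals of 0.92 and 769.98, none of the 9 could have brought it under 2-fold. The size of its log2 ratio followed the floor: 4.93 with the floor at the 20th percentile, 3.16 at the 60th, 8.65 with no floor and a pseudocount of 1, and 4.03 as reported. Hdac4 (-1.18 to -0.74) and Hdac5 (-1.08 to -0.84) kept their direction in all 9, of which 2 and 4 could not change the value, and stayed at least 2-fold lower in 6 each. Hdac7 ranged from 0.66 to 1.03, Camk2d from -0.62 to -0.01 and Hdac9 from -0.53 to -0.27 in 7, since it was not measured in the other 2. Camk2a turned to 0.16 with the mean over probe sets, and Camk2g, level as reported, changed sign in 3.

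Member genes at least 2-fold higher numbered 2 in place of 1 with the mean over probe sets and at a 1.5-fold threshold. Those lower numbered 1 in place of 2 with quantile or loess scaling, the floor at the 60th percentile or the mean over probe sets, and 0 at 3-fold or with the 40th percentile as a pseudocount. Member probe sets higher numbered 1 in place of 3 with the floor at the 60th percentile, with that pseudocount and at 3-fold, and 5 with no floor or at 1.5-fold. Those lower numbered 1 in place of 2 with quantile or loess scaling or the floor at the 60th percentile, 0 with that pseudocount or at 3-fold, and 4 with no floor. Of the pathway genes 89 were measured as reported, and measured genes were counted anew in each alternative. Those higher numbered 2 in place of 4 with the floor raised to the 60th percentile or where other probe sets had to share the sign. They numbered 1 at 3-fold or with the mean over probe sets, 13 at 1.5-fold, and between 3 and 6 in the remaining alternatives. Those lower numbered 24 in place of 15 at 1.5-fold, 11 with the mean over probe sets and 12 where other probe sets had to share the sign. In the remaining alternatives the lower ones numbered between 13 and 16. At 1.5-fold, 12.8% of all measured genes were higher and 19.3% lower.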
